A study of Mus musculus with 10 samples.

Results

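The splicing regulators examined were 10 genes, Ptbp1, Ptbp2, Srrm4, Nova1, Nova2, Rbfox1, Rbfox2, Rbfox3, Elavl3 and Elavl4, chosen by name among 48972 genes with counts, of which 17835 passed the filter on low counts. All 10 passed it. RNA was sequenced from YFP-positive cells sorted from e10.5 mouse spinal cord, in 5 control and 5 cdKO samples. Both genotypes carried Olig2-Cre and Rosa26R-YFP, each on 1 allele (Olig2-Cre+/-/Rosa26R-YFP+/-). Control samples were Oc1+/Flox/Oc2+/Flox, so Cre also removes the floxed copy of Oc1 and Oc2 in them, and cdKO samples were Oc1-/Flox/Oc2-/Flox. Olig2-Cre also marks cells derived from p3 progenitors (V3 interneurons), and the sorted cells therefore need not all be motor neurons (MNs). The labels do not say whether a sample is 1 embryo or a pool, so that p-values below measure the spread between these samples.

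These proteins bind pre-mRNA and decide which exons are kept while a progenitor becomes a neuron. PTBP1 represses neuronal exons in progenitors and falls as neurons form, its paralogue PTBP2 takes over, and SRRM4 (nSR100) promotes inclusion of very short neuronal exons. NOVA, RBFOX and the Hu proteins ELAVL3 (HuC) and ELAVL4 (HuD) act mostly in postmitotic neurons, where RBFOX3 is the antigen NeuN. Ptbp1 and Ptbp2 each contain a 34-base exon whose omission shifts the reading frame, and PTBP1 favours its omission in Ptbp2. RBFOX genes carry alternative exons of 40 and 43 bases near the 3′ end of the coding sequence, the first typical of brain and the second of muscle.

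The exons on which the exon comparisons turn are shown from GENCODE M21 transcripts, with coordinates on GRCm38. In the pair of 34-base exons, capitals mark the bases that differ between Ptbp1 and Ptbp2, and 26 of 34 bases were identical (76.5%). The first lies at chr10:79862014-79862047 on the plus strand and the second at chr3:119724612-119724645 on the minus strand.
Ptbp1 34-base exon: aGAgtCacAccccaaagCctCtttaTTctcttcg
Ptbp2 34-base exon: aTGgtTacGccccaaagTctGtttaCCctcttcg

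Ptbp1 also has a 78-base exon, at chr10:79860117-79860194 on the plus strand, whose length keeps the frame. It is shown because it had the smallest p of the cassette exons compared in the regulators. Capitals mark its first 9 bases, which were counted as a bin of their own.
Ptbp1 78-base exon: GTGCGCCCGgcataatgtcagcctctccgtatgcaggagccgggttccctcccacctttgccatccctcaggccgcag

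The 40-base exons lie at chr16:7363865-7363904 (plus strand, Rbfox1) and chr15:77094451-77094490 (minus strand, Rbfox2), and the 43-base exons at chr16:7369801-7369843 and chr15:77091812-77091854. Capitals again mark bases that differ between the paralogues. The 40-base exons shared 34 of 40 bases (85%) and the 43-base exons 27 of 43 (62.8%).
Rbfox1 40-base exon: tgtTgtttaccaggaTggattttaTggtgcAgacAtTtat
Rbfox2 40-base exon: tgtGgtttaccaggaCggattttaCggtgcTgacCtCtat
Rbfox1 43-base exon: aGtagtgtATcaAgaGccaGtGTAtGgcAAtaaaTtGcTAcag
Rbfox2 43-base exon: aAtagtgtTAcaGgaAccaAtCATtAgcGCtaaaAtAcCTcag

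Total counts ranged from 63932395 to 107709534 per sample. Exon 1 of Oc1 (chromosome 9, 74861921 to 74863401) had 63 to 210 counts in control and 0 to 17 counts in cdKO samples (two-sided exact permutation p = 0.00794, which is the minimum for 5 against 5). The labelled cell type was checked with 9 MN genes, which summed to 594 to 761 CPM (a gene's counts scaled to library size by TMM) in control and 366 to 822 CPM in cdKO samples. All 9 were detected, except that Slc5a7 was at 0.0148 CPM in control replicate 5, where 3 counts correspond to 0.0443 CPM. A list of 12 postmitotic neuron genes summed to 876 to 6080 CPM in control and 2000 to 8380 CPM in cdKO samples, with the lowest sum in control replicate 5 and the highest in cdKO replicate 5. Progenitor genes summed to 2710 to 4390 CPM and 2660 to 4340 CPM, mesenchyme genes to 20.6 to 123 CPM and 31.9 to 145 CPM, and erythroid genes to 1.27 to 15.7 CPM and 2.18 to 48.7 CPM, in control and cdKO samples respectively. Of the highest mesenchyme sum of each group, Dcn alone gave 97.9 CPM (control replicate 1) and 118 CPM (cdKO replicate 5). V3 and floor plate genes summed to 149 CPM in control replicate 5, 32.4 to 42.7 CPM in the other control samples and 33.7 to 59.3 CPM in cdKO samples. Neural crest and sensory genes summed to 65.1 to 133 CPM in control and 57.7 to 176 CPM in cdKO samples. Counts of cdKO replicate 5 lay closer to the 3′ end of genes than in any other sample. Their centre was shifted by a median of 0.0802 of the exon length from each gene's mean over all 10 samples, against -0.0163 to 0.0026 in the other 9 samples. The median centre itself lay at 0.587 of the exon length from the 5′ end, against 0.456 to 0.491. It had counts on 198569 exon bins, against 243970 to 271591. Results are therefore also given without cdKO replicate 5.

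Per kilobase over all exon bins, Elavl4 and Ptbp1 were the most abundant of the 10 genes in control samples. Elavl4 averaged 85.8 ± 30.5 and Ptbp1 67.1 ± 26.7 CPM per kb (SD, n = 5), and this pair did not differ beyond its spread. Ptbp2 followed at 28.0 ± 7.26 CPM per kb, below both, and Rbfox2 at 8.45 ± 1.71 CPM per kb. Srrm4 (6.27 ± 3.06 CPM per kb), Rbfox1 (3.82 ± 1.45), Rbfox3 (3.57 ± 1.30) and Elavl3 (3.39 ± 1.85) formed a run in which each lay within the spread of its neighbour. Srrm4 likewise overlapped Rbfox2 above it, and Elavl3 overlapped Nova1 (1.42 ± 0.297 CPM per kb) below it. Nova2 was lowest over all bins, at 0.523 ± 0.0575 CPM per kb. With only bins of at least 200 bases, the places of 5 genes in this order changed, all between the fifth and the ninth. A read is counted on each bin it overlaps, so genes with many short bins gain counts per kilobase. With only the whole bins that reach into the last 500 exon bases (953 to 7784 bases per gene, scaled to the total of such bins), a setting chosen after the values were seen, only Ptbp1 and Rbfox2 kept their places. Ptbp2 was then first at 123 ± 31 CPM per kb, Ptbp1 was at 99.7 ± 29.2 and Elavl4 at 83.2 ± 33.8, and these neighbours overlapped (SD, n = 5). Rbfox1 was then the lowest, at 1.43 ± 0.472 CPM per kb, below Nova2 at 2.22 ± 0.359, so the order of the first 3 genes and the lowest gene depended on the bins used. Over all bins, the first 5 places in cdKO samples were the same genes, and Rbfox1 was the ninth, at 1.12 ± 1.04 CPM per kb.

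None of the 10 regulators passed an adjusted p of 0.05 between cdKO and control samples. Of all 17835 genes tested, 0% were called (edgeR quasi-likelihood test, Benjamini-Hochberg adjustment over all genes), and 888 had an unadjusted p under 0.05. At that unadjusted level 1 member, Rbfox1, was lower in cdKO samples, against 0.813% of all genes. The fitted log2 fold change was below 0 for 7 of the 10 members, against 51.8% of all genes, and its median was -0.09 over the members and -0.02 over all genes tested. In sorted bulk cells, fewer cells of a type and less RNA per cell cannot be told apart.

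**Figure D1:**
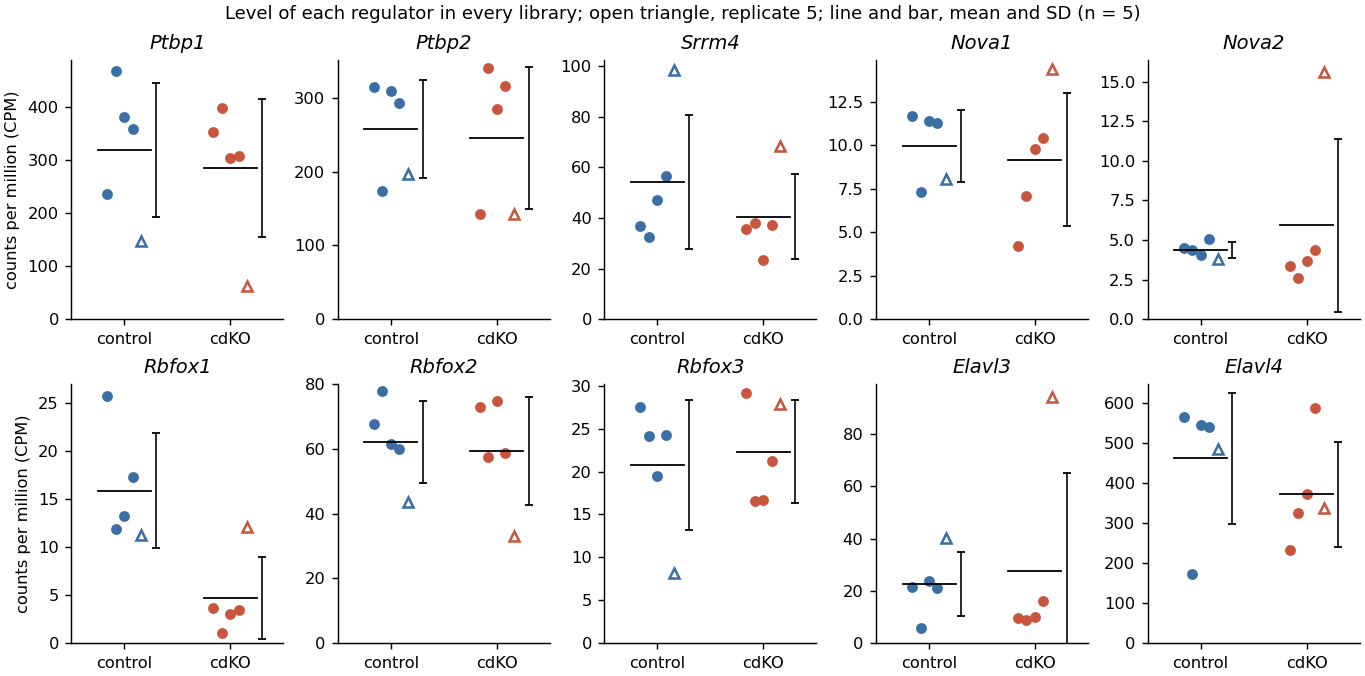
Level of the 10 regulators in CPM (TMM-scaled, linear axis from 0) in each of 5 control and 5 cdKO samples. Points are replicates 1 to 4, open triangles replicate 5, lines the means and bars the SD (n = 5, cut at 0 for Elavl3). Rbfox1 lies between 1.03 and 3.68 CPM in cdKO replicates 1 to 4 and between 11.2 and 25.7 CPM in the control samples.

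Among the RBFOX genes, Rbfox1 had the largest difference of all 10 members. It lies on chromosome 16 from 5885355 to 7411526 (plus strand, 16 exon bins, 4151 exon bases). Its level was 25.7, 11.8, 13.2, 17.3 and 11.2 CPM in control replicates 1 to 5 and 3.68, 1.03, 3.05, 3.40 and 12.1 CPM in cdKO replicates 1 to 5. Replicates 1 to 4 of the cdKO group were all below every control sample, and replicate 5 was within the control range. The means were 15.8 ± 6.01 CPM in control and 4.66 ± 4.30 CPM in cdKO samples (SD, n = 5 per group). The fitted log2 fold change of Rbfox1 was -1.77 (standard error 0.54), which did not pass the test across all genes (edgeR quasi-likelihood test, adjusted p = 0.938). An exact two-sided permutation test of log2 CPM gave p = 0.0238. No member had every cdKO sample below every control sample, which 0.224% of all genes did.

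Without cdKO replicate 5, the log2 fold change of Rbfox1 was -2.50 (standard error 0.43), and its adjusted p from the same edgeR test was 0.326. The remaining 4 cdKO samples averaged 2.79 ± 1.20 CPM (SD, n = 4). Every one of them lying below every control sample was also seen for 0.521% of all genes. Over all the alternative fits the log2 fold change stayed between -2.62 and -1.30 and was always negative. Its adjusted p ranged from 0.0116 (limma-voom with sample quality weights) to 1, and only limma-voom with weights passed, a fit that called 0.0729% of all genes.

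The lower counts of Rbfox1 were found in every exon bin that could be measured. Of its 16 exon bins, 13 had a mean of at least 10 counts, and all 13 had a lower mean CPM in cdKO than in control samples. In 5 of these 13 bins every cdKO sample was below every control sample, and in all 13 this held without cdKO replicate 5. Of all 188565 exon bins with a mean of at least 10 counts, 0.189% and 0.379% did so. Neighbouring bins share reads and are not independent. In cdKO replicate 5, the last bin of Rbfox1 was the highest of its bins, at 2.38 CPM. The last bin alone, the only one to reach the last 500 exon bases, gave a log2 fold change of -1.30 (standard error 0.79, edgeR quasi-likelihood test, adjusted p = 1). Scaled to the total of such bins, it was at 2.79 to 5.47 CPM in control samples. In cdKO replicates 1 to 4 it was at 0.15 to 0.619 CPM, and in cdKO replicate 5 at 5.94 CPM, above every control sample. MN markers were 366 CPM in cdKO replicate 5 and 565 to 822 CPM in the other cdKO samples, and postmitotic neuron markers 8380 CPM against 2000 to 6100 CPM. The neuron markers did not all move together. Tubb3, Map2, Snap25, Nefl and Nefm in cdKO replicate 5 lay within the range of the other cdKO samples, and the rest of the list was highest there. The part of the MN and neuron markers in the level of Rbfox1 was not tested.

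**Figure D2:**
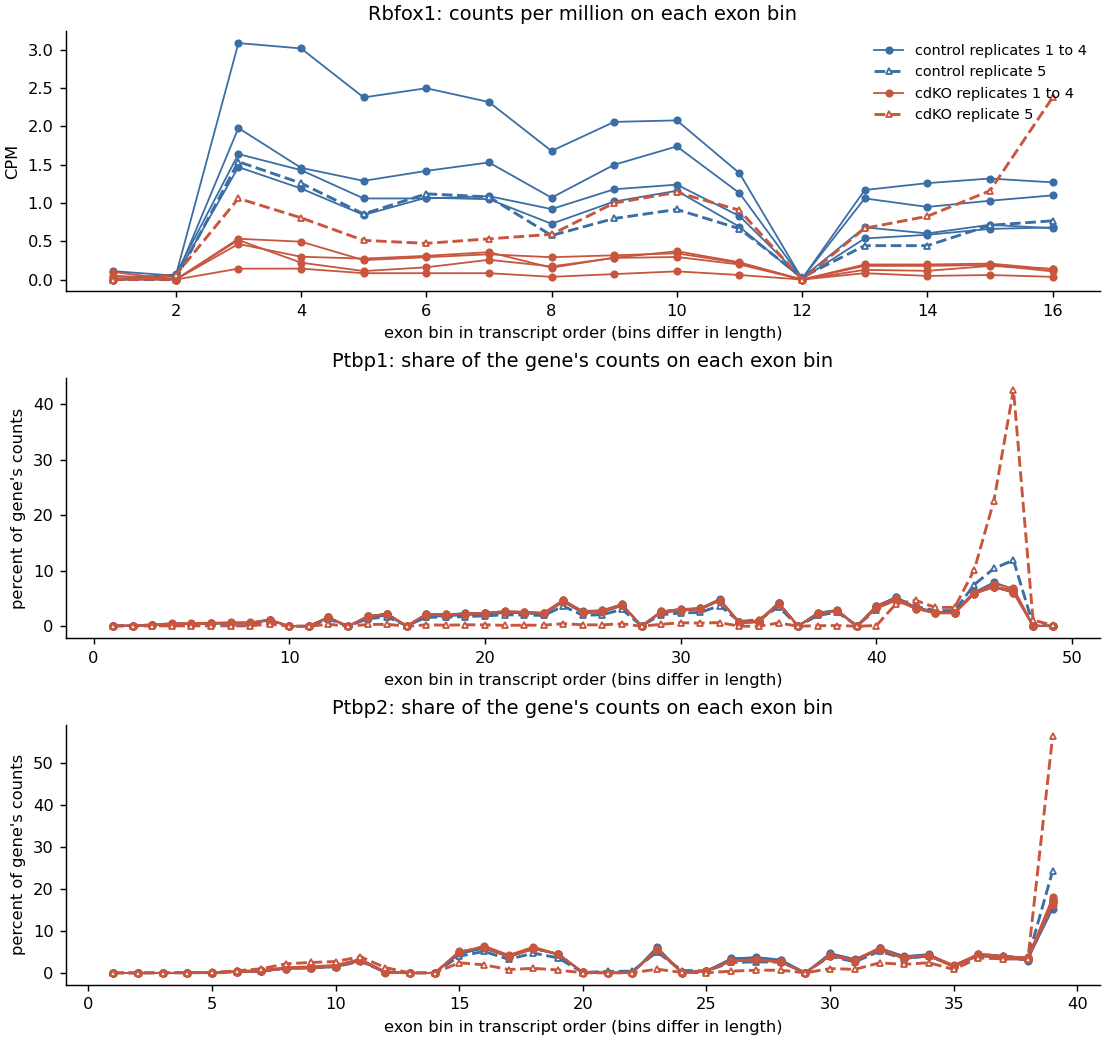
Counts on each exon bin, in transcript order, for Rbfox1 (top, CPM), Ptbp1 (middle) and Ptbp2 (bottom, both as percent of the gene's counts), with 1 line per sample (solid, replicates 1 to 4; dashed with open triangles, replicate 5). Rbfox1 is lower in cdKO replicates 1 to 4 in the 13 bins with a mean of at least 10 counts, and the counts of Ptbp1 and Ptbp2 in cdKO replicate 5 gather on the last bins.

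Rbfox2 (chromosome 15, 77078990 to 77307004, minus strand), the member of the family most widely expressed outside neurons, had similar levels in both groups. Its level was 67.8, 78, 61.6, 60.1 and 43.5 CPM in control replicates 1 to 5 and 72.9, 57.6, 74.8, 58.9 and 33 CPM in cdKO replicates 1 to 5. The ranges overlapped throughout, and replicate 5 was the lowest of each group. Its fitted log2 fold change was -0.07 (standard error 0.28, adjusted p = 0.998, edgeR quasi-likelihood test). Per kilobase over all bins, Rbfox2 was 1.49 to 3.73 times as abundant as Rbfox1 in control samples. The ratio was 9.77 to 31.5 in cdKO replicates 1 to 4 and 1.54 in cdKO replicate 5, a comparison chosen after the values were seen. The control means over all bins were 8.45 ± 1.71 (Rbfox2) and 3.82 ± 1.45 CPM per kb (Rbfox1). Over the bins reaching the last 500 exon bases, they were 11.4 ± 3.46 and 1.43 ± 0.472 CPM per kb. The cdKO means over the latter bins were 11.8 ± 2.15 and 0.579 ± 0.925 CPM per kb (SD, n = 5 per group). The size of the ratio therefore depended on the bins used.

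Rbfox3 (chromosome 11, 118489762 to 118911597, minus strand) was at 27.5, 24.2, 19.5, 24.3 and 8.18 CPM in control replicates 1 to 5. In cdKO replicates 1 to 5 it was at 29.2, 16.6, 16.7, 21.2 and 27.9 CPM. The groups overlapped, and the lowest value was that of control replicate 5. Its fitted log2 fold change was 0.11 (standard error 0.34, adjusted p = 0.998, edgeR quasi-likelihood test).

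The PTB pair differed between samples much more than between groups. Ptbp1 (chromosome 10, 79854427 to 79864771, plus strand) was at 237, 468, 382, 358 and 147 CPM in control replicates 1 to 5 and at 352, 398, 303, 308 and 62.8 CPM in cdKO replicates 1 to 5. Replicate 5 was the lowest of both groups, and the other samples overlapped. For Ptbp1 the log2 fold change was -0.16 (standard error 0.44, adjusted p = 0.998, edgeR quasi-likelihood test) and was 0.09 without cdKO replicate 5. In that sample the centre of the Ptbp1 counts lay at 0.738 of the exon length from the 5′ end, against 0.422 to 0.489 in the other 9 samples. Over the bins reaching the last 500 exon bases, scaled to the total of such bins, Ptbp1 averaged 95.1 ± 27.8 CPM in control and 88.5 ± 16.9 CPM in cdKO samples (SD, n = 5 per group).

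Ptbp2 (chromosome 3, 119718742 to 119784466, minus strand) was at 314, 174, 309, 293 and 197 CPM in control replicates 1 to 5 and at 143, 340, 285, 316 and 142 CPM in cdKO replicates 1 to 5. Low values occurred in both groups, in control replicates 2 and 5 and in cdKO replicates 1 and 5. For Ptbp2 the log2 fold change was -0.07 (standard error 0.33, adjusted p = 0.998, edgeR quasi-likelihood test). The ratio of Ptbp2 to Ptbp1 per kilobase, also chosen after the values were seen, was 0.192 to 0.692 in control and 0.210 to 1.17 in cdKO samples. It was below 1 in 9 of 10 samples, and cdKO replicate 5 gave the value of 1.17. Over the bins reaching the last 500 exon bases it was above 1 in 8 of 10 samples, at 0.554 to 2.10 in control and 0.641 to 1.75 in cdKO samples, so which of the pair was more abundant depended on the bins used.

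Srrm4 (chromosome 5, 116439275 to 116591817, minus strand) was at 36.7, 32.4, 47.0, 56.7 and 98.6 CPM in control replicates 1 to 5 and at 35.5, 38.0, 23.6, 37.1 and 68.5 CPM in cdKO replicates 1 to 5. Replicate 5 was the highest of each group, and the ranges overlapped. Its log2 fold change was -0.42 (standard error 0.37, adjusted p = 0.997, edgeR quasi-likelihood test), and all alternatives kept it negative, from -0.68 to -0.09. The value was -0.68 without cdKO replicate 5 and -0.09 (standard error 0.33) without control replicate 5, so its size depended on these samples.

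The NOVA genes were low throughout. Nova1 (chromosome 12, 46694517 to 46818929, minus strand) was at 11.7, 7.34, 11.4, 11.3 and 8.08 CPM in control replicates 1 to 5 and at 4.24, 7.08, 9.80, 10.4 and 14.4 CPM in cdKO replicates 1 to 5. The cdKO samples held both the lowest and the highest value (log2 fold change -0.12, standard error 0.34, adjusted p = 0.998, edgeR quasi-likelihood test). Nova2 (chromosome 7, 18925888 to 18965319, plus strand) was at 4.51, 4.39, 4.08, 5.10 and 3.83 CPM in control replicates 1 to 5. In cdKO replicates 1 to 5 it was at 3.36, 2.64, 3.69, 4.37 and 15.6 CPM. Replicate 5 stood above all other samples, replicates 1 to 3 lay below every control sample, and replicate 4 lay within the control range. The log2 fold change of Nova2 was 0.44 (standard error 0.47, adjusted p = 0.997, edgeR quasi-likelihood test) and changed sign to -0.31 without cdKO replicate 5. With all 10 samples, the value was 0.08 from bins overlapping exons of 1 gene only and 0.09 from the bins reaching the last 500 exon bases.

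Of the Hu genes, Elavl3 varied 16.2-fold between its lowest and highest sample, and Elavl4 varied 3.40-fold. Elavl3 (chromosome 9, 22015005 to 22052023, minus strand) was at 21.5, 5.83, 23.6, 21.2 and 40.4 CPM in control replicates 1 to 5 and at 9.70, 8.92, 9.76, 16.2 and 94.2 CPM in cdKO replicates 1 to 5. The highest value was that of cdKO replicate 5, and the other 4 cdKO samples lay inside the control range. With all samples, the fitted log2 value was 0.30 (standard error 0.68, adjusted p = 0.997, edgeR quasi-likelihood test). It was -1.0 without cdKO replicate 5 (standard error 0.44, adjusted p = 1), and was also negative with library size only, limma-voom and the replicate block, so that its direction was not settled. The deposited bins join Elavl3 to neighbouring genes, and its values come from the 11 bins that could be given to it alone.

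Elavl4 (chromosome 4, 110203722 to 110351909, minus strand) was at 565, 173, 546, 541 and 485 CPM in control replicates 1 to 5. In cdKO replicates 1 to 5 it was at 232, 326, 374, 588 and 339 CPM. Control replicate 2 was the lowest of all samples and cdKO replicate 4 the highest. Here the fitted log2 value was -0.31 (standard error 0.35, adjusted p = 0.997, edgeR quasi-likelihood test) and stayed between -0.54 and -0.11 over the alternatives.

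**Figure D3:**
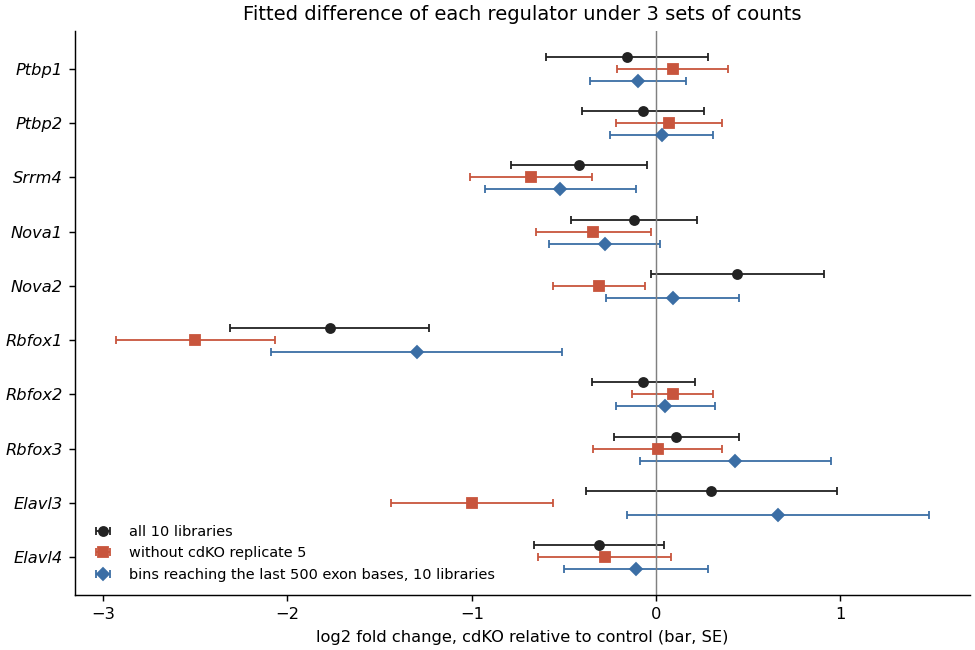
Log2 fold change of each regulator, cdKO relative to control, with its standard error, from all 10 libraries (black circles), without cdKO replicate 5 (red squares) and from the bins reaching the last 500 exon bases of each gene (blue diamonds). Rbfox1 is at -1.77, -2.50 and -1.30, while Ptbp1, Ptbp2, Nova2, Rbfox2 and Elavl3 change sign without cdKO replicate 5.

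The same comparison was made for 59 other RNA-binding splicing regulators, of which 58 passed the filter. None had an unadjusted p under 0.05 (4.98% of all genes did, in either direction), 26 had a higher and 32 a lower fitted value in cdKO samples, and the median log2 fold change was -0.04. Of all genes tested, 51.8% had a lower fitted value in cdKO samples. The higher and lower members numbered 4 and 3 among the closest relatives of the 10 genes, 5 and 4 among CELF and MBNL genes, 8 and 2 among STAR and KH genes, 3 and 10 among hnRNP genes, and 6 and 13 among SR and RBM genes. These family counts were not tested. The smallest p belonged to Srsf5, an SR protein gene named after its value was seen. It averaged 607 ± 217 CPM in control and 381 ± 129 CPM in cdKO samples (SD, n = 5 per group, log2 fold change -0.67, edgeR quasi-likelihood test, adjusted p = 0.938).

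Exon choice within Ptbp1, Ptbp2 and Rbfox2 was then compared. Relative use is the count of an exon bin divided by the mean count of the nearest constitutive bins on both sides, each plus 0.5, with no correction for length. It therefore compares samples for 1 bin and depends on the lengths of the bins, as in the 34-base exon of Ptbp1, where the 3-base bin was at 0.600 and the 31-base bin at 0.743 in control samples. Relative use is not the share of transcripts that include an exon. Of 106 bins in the 3 genes, 26 were alternative, 24 of these had a mean of at least 10 counts, and 22 had constitutive bins on both sides, 11 of them in cassette exons. None of the 22 differed between groups by an exact two-sided permutation test at p under 0.05, with or without cdKO replicate 5. Across all exon bins, 0% of 181061 were called by edgeR's diffSpliceDGE at an adjusted p of 0.05 and 0.964% had an unadjusted p under 0.05, and none of the 22 was among either.

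The 34-base exon of Ptbp2 varied little between samples. Its relative use was 0.718, 0.737, 0.723, 0.751 and 0.777 in control replicates 1 to 5 and 0.720, 0.720, 0.739, 0.723 and 0.775 in cdKO replicates 1 to 5. Replicate 5 was the highest of each group, and the groups overlapped over nearly their whole range. The means were 0.741 ± 0.0237 and 0.735 ± 0.0235 (SD, n = 5 per group, exact permutation test, two-sided, p = 0.698).

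The 34-base exon of Ptbp1, read from its 31-base bin, had a relative use of 0.735, 0.734, 0.749, 0.715 and 0.781 in control replicates 1 to 5. In cdKO replicates 1 to 5 it was 0.757, 0.748, 0.734, 0.738 and 0.375. Apart from cdKO replicate 5, with 4 counts on this bin and a mean of 11.5 on its neighbours, the samples of both groups lay within 0.715 to 0.781. The cdKO mean was 0.744 ± 0.0105 without that sample (SD, n = 4), against 0.743 ± 0.0245 (SD, n = 5) in control samples (exact permutation test, two-sided, p = 0.905).

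The 78-base exon of Ptbp1, read from its 69-base bin, had the smallest p of the cassette exons of the 3 genes. Relative use was 0.187, 0.208, 0.222, 0.236 and 0.331 in control replicates 1 to 5 and 0.211, 0.192, 0.232, 0.160 and 0.0244 in cdKO replicates 1 to 5. Control replicate 5 was high and cdKO replicate 5 low, the latter with 0 counts on the bin and a mean of 20 on its neighbours, while the other samples overlapped. The means were 0.237 ± 0.0555 and 0.164 ± 0.0825 (SD, n = 5 per group, exact permutation test, two-sided, p = 0.135). Without cdKO replicate 5 the cdKO mean was 0.199 ± 0.0305 (exact permutation p = 0.286).

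In Rbfox2, the 40-base exon had a relative use of 0.779, 0.807, 0.791, 0.738 and 0.941 in control replicates 1 to 5 and of 0.709, 0.883, 0.817, 0.777 and 0.700 in cdKO replicates 1 to 5. The ranges overlapped, with control replicate 5 highest and cdKO replicate 5 lowest (0.811 ± 0.0770 against 0.777 ± 0.0765, SD, n = 5 per group, two-sided exact permutation test, p = 0.476). The 93-base exon (0.937 ± 0.0499 against 0.903 ± 0.101), the 54-base exon (0.840 ± 0.0490 against 0.808 ± 0.0730) and the 147-base exon (1.07 ± 0.0428 against 1.05 ± 0.0778) differed by less than their SD between groups. Exact permutation tests, two-sided, gave p = 0.603, 0.508 and 0.659 for these exons (n = 5 per group). The 73-base exon was at 0.387 ± 0.0161 in control and 0.346 ± 0.106 in cdKO samples (exact permutation p = 0.690, n = 5 per group). The only other cassette exon, of 30 bases in Ptbp1, was at 0.924 ± 0.0446 and 0.937 ± 0.0153 (n = 5 per group, exact two-sided permutation test, p = 0.524).

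**Figure D4:**
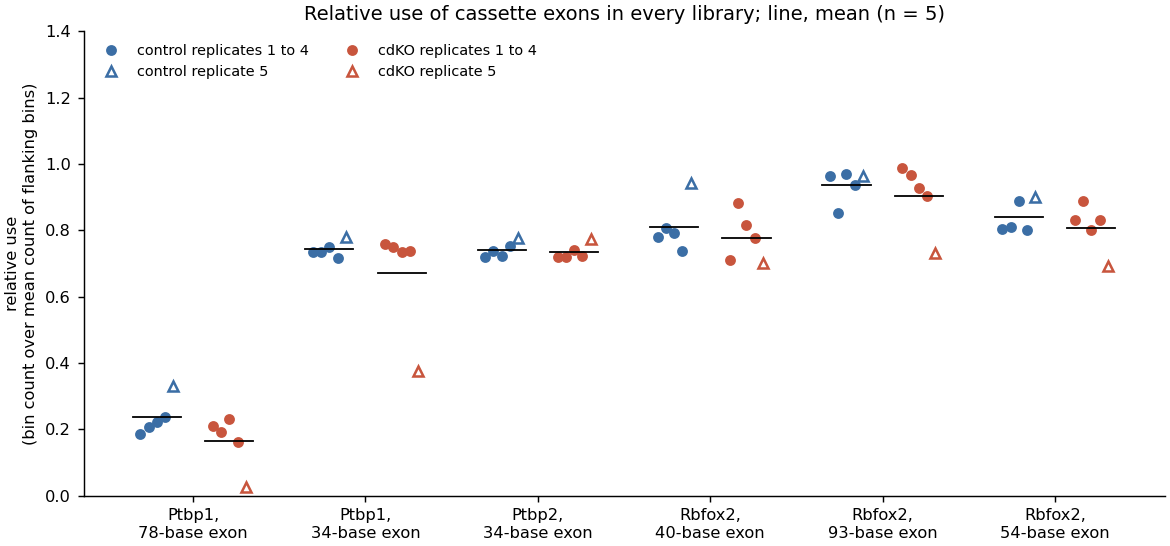
Relative use (count of a bin over the mean count of the flanking constitutive bins, linear axis from 0) of 6 cassette exons of Ptbp1, Ptbp2 and Rbfox2 in each of 5 control (blue) and 5 cdKO (red) samples, with lines at the means. The 78-base exon of Ptbp1 is read from its 69-base bin and the 34-base exon from its 31-base bin. The groups overlap for all 6 exons, and cdKO replicate 5 lies apart for both exons of Ptbp1.

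The choice between the 40-base and the 43-base exon was nearly complete in both RBFOX genes. Rbfox2 had 199 to 455 counts on the 40-base exon and 0 to 5 counts on the 43-base exon in control samples. In cdKO samples it had 52 to 337 and 0 to 8 counts. Over all 10 samples the 43-base exon took 29 of 2741 counts on the pair, or 1.06% (95% exact binomial interval 0.710 to 1.52, counting error only). In Rbfox1 the 40-base exon had 139, 72, 73, 83 and 45 counts in control replicates 1 to 5 and 17, 5, 16, 19 and 46 counts in cdKO replicates 1 to 5. The 43-base exon of Rbfox1 took 1 or 2 counts in each control sample and 0 in each cdKO sample, together 7 of 522 or 1.34% (interval 0.541 to 2.74). At 5 to 46 counts per cdKO sample, a difference between groups in this share was not detectable.

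Exons known as targets of these regulators were examined from a list of 13 entries. In all, 7 exons could be measured, 2 of them from the Pkm entry. In Pkm, whose pair of mutually exclusive exons is controlled by PTBP1, the exon of the adult form had a relative use of 0.0528 ± 0.0266 in control and 0.0818 ± 0.0432 in cdKO samples. The exon of the embryonic form was at 0.926 ± 0.0274 and 0.895 ± 0.0436 (SD, n = 5 per group). Two-sided permutation tests, exact, gave p = 0.238 and 0.230. In the neuronal adhesion gene Nrcam, a 30-base exon was at 0.318 ± 0.128 and 0.441 ± 0.114 (SD, n = 5 per group, two-sided exact permutation test, p = 0.143). The cdKO mean of Nrcam includes cdKO replicate 5, which had 0 counts on this exon and a mean of 1 on its neighbours, so that its value of 0.333 comes from the added 0.5. Without it the cdKO mean was 0.468 ± 0.111 (SD, n = 4, exact permutation p = 0.111). The exons of 24 and 33 bases in Agrn, whose inclusion gives the neuronal form of agrin that clusters acetylcholine receptors, were at 0.0622 ± 0.0271 and 0.0633 ± 0.0481 in control samples. In cdKO samples they were at 0.0517 ± 0.0289 and 0.0773 ± 0.0464 (SD, n = 5 per group, two-sided exact permutation tests, p = 0.619 and 0.841). In Clta, the clathrin light chain a gene, the 36-base exon was at 0.00909 ± 0.00238 and 0.00896 ± 0.00357 and the 54-base exon at 0.233 ± 0.0755 and 0.261 ± 0.0489 (exact permutation p = 0.786 and 0.460, n = 5 per group). No exon of the list passed the threshold of 0.05, but with 5 in place of the added 0.5 that of Nrcam did (exact permutation p = 0.0397). In that setting the value of cdKO replicate 5 again comes from the added amount and not from counts, so this p rests in part on it. As percent of gene counts the log2 difference of the Nrcam exon was -0.22 (exact permutation p = 0.968).

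The level of Ptbp1 was set against the relative use of the 34-base exon of Ptbp2 over the 10 samples. Pearson's r was -0.74 (permutation p = 0.0197) and Spearman's rho -0.33 (permutation p = 0.345). Without the 2 samples farthest from the median of Ptbp1, control replicate 5 and cdKO replicate 5, r was 0.27 (permutation p = 0.497), so the relation rested on those samples. It also turned over, to r = 0.88 (permutation p = 0.0033), when the exon was given as a percent of the counts of Ptbp2, and was 0.51 (permutation p = 0.201) without the same 2 samples. With this percent, Spearman's rho was 0.77 (permutation p = 0.0125) over all 10 samples and 0.62 (permutation p = 0.115) without the same 2 samples. Adjusted by Benjamini-Hochberg over these 4 coefficients of 10 samples, the permutation p-values were 0.0263 for r = -0.74, 0.345 for its rho, 0.0132 for r = 0.88 and 0.0250 for its rho.

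Across the 10 samples, the genes whose log2 CPM followed that of Ptbp1 most closely were Ctdp1 (Pearson r = 0.991), Dcaf8 (0.990) and Xpo5 (0.989), among 10175 genes with a mean of at least 5 CPM. Ctdp1 stayed among the 3 closest without cdKO replicate 5 (r = 0.977), joined by Mybbp1a and Uhrf1. Srrm4 was followed by Srrm2 (0.965), Srrm1 (0.965) and Heatr6 (0.964), which were also its 3 closest without cdKO replicate 5. The points share library depth and 3′ coverage, and the values are descriptions.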

How the data were processed

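Per the labels' processing notes, the submitters named bcl2fastq 2.17, Trimmomatic 0.36, STAR 2.5.2b, Subread 1.5.2, DESeq2 and the genome build GRCm38, without settings. The authors deposited raw counts of reads per exon bin for each sample, not normalized. A read counts on every bin it overlaps, as 3712 bins of at most 5 bases between touching bins had a median of 1.02 times the counts of their lower neighbour. Strand was not used, since the counts were equal for 16 of 16 intervals present once per strand, and reads of overlapping opposite-strand genes cannot be told apart. Bins were matched to GENCODE M21 and summed per gene, and 3988 of 425461 bins (1.17% of counts) that fitted no 1 gene were left out.

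Genes passing filterByExpr (minimum count 10) were TMM-scaled, and a quasi-likelihood fit in edgeR 4.0.16 (R 4.3.3) compared cdKO with control over all 10 samples, with Benjamini-Hochberg adjustment (threshold 0.05). Exon bins were tested with edgeR's diffSpliceDGE. Exact two-sided permutation tests used all arrangements of the samples (252 for 5 against 5, fewer for 5 against 4). They were made on log2 values with a pseudocount of 0.5, and correlations used 100000 permutations. The same scripts were tested on simulated data. Bins were called alternative when some, not all, coding or nonsense-mediated-decay transcripts spanning them include them. The latter were added after the design was written, as the 34-base exons are skipped only in such transcripts. All 10 members, every cassette bin with a mean of at least 10 counts, other regulators with an unadjusted p under 0.05 and the 3 genes most like Ptbp1 and Srrm4 are named, and exceptions are stated. Alternatives used DESeq2 1.42.0 and limma 3.58.1, other scalings, filters and bin sets, the replicate block and each sample left out. The members and lists were chosen with earlier results of these data known. A floor of 3 counts corresponds to 0.0288 to 0.0591 CPM, for counting error only. Within each group, all libraries differed from one another by more than sampling noise.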

Additional observations from a re-analysis of the deposited data

Results flagged for a closer look

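Of 42 sets of 5 values, each a member or exon bin within a group, 9 contained a value well apart from the other 4 (about 2.1, or 1 in 20, would be so by chance). In 7 of the 9 this sample was cdKO replicate 5. Its level was 62.8 CPM for Ptbp1 (303 to 398 CPM in the other cdKO samples), 15.6 CPM for Nova2 (2.64 to 4.37 CPM), 12.1 CPM for Rbfox1 (1.03 to 3.68 CPM) and 94.2 CPM for Elavl3 (8.92 to 16.2 CPM). Its relative use was 0.292 for the 3-base bin (0.605 to 0.634) and 0.375 for the 31-base bin (0.734 to 0.757) of the 34-base exon of Ptbp1, and 0.159 for the 73-base exon of Rbfox2 (0.376 to 0.426). Its counts lie closer to the 3′ end, and the part of this in these values was not tested.

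In control replicate 2, Elavl4 was at 173 CPM (485 to 565 CPM in the other control samples). The 93-base exon of Rbfox2 had a relative use of 0.851 there (0.937 to 0.971).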

How the results depend on the processing

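The adjusted p of the members stayed above 0.05 in every alternative, except for Rbfox1 with limma-voom and sample quality weights (1 member called). Over all genes, 0 were called by edgeR, 1 with library size only, 20 with DESeq2, 3 with limma-voom, 13 with weights, 1 without a filter, 0 to 4 with each sample left out, 1 with the bins reaching the last 500 exon bases and 4 without replicate 5 of both groups, the last pair of settings chosen after seeing the data. Calls among exon bins were 0, then 2 with limma-voom diffSplice, 1 with the replicate block and 4 without cdKO replicate 5. Alternative bins with p under 0.05 numbered 0 to 1 with each sample left out (the 69-base bin of Ptbp1 without cdKO replicate 3, log2 difference -1.05, exact permutation p = 0.0397), and target exons 1 with a pseudocount of 5 (Nrcam). In this Nrcam setting the value of cdKO replicate 5, with 0 counts on the exon, comes from the pseudocount. Scaling by library size only shifted the median over all genes from -0.02 to -0.15 on the log2 scale, and of genes under 0.05 before adjustment 380 were then higher in cdKO and 253 lower, against 743 and 145 with TMM. In the order by level, 5 genes kept their place with bins of at least 200 bases, and 2 with the bins reaching the last 500 exon bases.

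Small differences changed sign, and the cause was not tested. With library size only Rbfox3 was -0.08 and Elavl3 -0.07. Elavl3 was -0.22 with limma-voom, and with weights it was -0.88, Nova2 -0.26, Rbfox2 0.05 and Rbfox3 -0.19. With the single highest bin Ptbp2 was 0.08 and Rbfox2 0.09, and with the bins reaching the last 500 exon bases 0.03 and 0.05. Without replicate 5 of both groups Nova2 was -0.37, Rbfox3 -0.20 and Elavl3 -0.71. With each sample, or replicate 5 of both groups, left out, log2 fold changes ran from -0.34 to 0.09 (Ptbp1), -0.22 to 0.07 (Ptbp2), -0.42 to 0.06 (Nova1), -0.37 to 0.62 (Nova2), -0.18 to 0.09 (Rbfox2), -0.20 to 0.23 (Rbfox3) and -1.0 to 0.62 (Elavl3). Log2 differences in relative use ran from -0.25 to 0.03 and -0.25 to 0.00 (3-base and 31-base bins, Ptbp1), -0.00 to 0.04 (30-base bin, Ptbp1), -0.03 to 0.01 (34-base exon, Ptbp2), -0.33 to 0.02, -0.09 to 0.01 and -0.06 to 0.01 (73-, 93- and 147-base exons, Rbfox2), -0.85 to 0.12 and -0.26 to 1.16 (24- and 33-base exons, Agrn) and -0.24 to 0.11 (36-base exon, Clta). As percent of gene counts they were -0.50 (30-base bin, Ptbp1), 0.03 (73-base exon, Rbfox2) and -0.22 (Nrcam). The relation of Ptbp1 with the Ptbp2 exon turned to 0.27, 0.88 and 0.51.

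The numbers attached to the deposited counts are 1 above those of the sample titles in both groups, which leaves the pairs the same. Same-numbered samples did not all deviate together (correlations 0.079, -0.257, 0.114, 0.321 and 0.283 for replicates 1 to 5, only replicates 4 and 5 correlating best with their own number). With the replicate block the smallest adjusted p of a member was 0.915 (edgeR quasi-likelihood test), Rbfox1 was -2.18, Elavl3 was -0.20, and genes with an unadjusted p under 0.05 numbered 462.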
